A study of Mus musculus with 2 samples.

Results

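RNA of medullary thymic epithelial cells (mTEC) was examined for 10 genes of the exocrine pancreas. They comprise 6 protease genes (Cpa1, Cpb1, Cela1, Cela2a, Cela3b and Ctrb1), 3 genes of fat digestion (Pnlip, Cel and Clps) and Ptf1a, a transcription factor of acinar cells. They were chosen by symbol: every transcript line of both deposited files whose RefSeq accession maps to 1 of the 10 symbols was taken, which gave 10 lines, 1 per gene, out of 30794 lines for 23123 gene symbols. The study sorted mTEC by surface MHC class II out of thymi pooled from B6 mice labelled WT, and made 1 poly(A)-selected library of the MHC class II high cells (mTEChi) and 1 of the MHC class II low cells (mTEClo). No allele or agent is labelled other than the wild-type B6 background that both groups share. Reads were paired and 100 bases long for mTEChi, and single and 50 bases long for mTEClo, so group and read type cannot be told apart. Neither group has a second library, so differences have no replicate check and none was tested.

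The exocrine pancreas makes digestive enzymes in its acinar cells, stores them in zymogen granules and releases them into the gut. Proteases are made as inactive precursors: chymotrypsinogen and proelastases cut within a protein, and procarboxypeptidases remove residues from its end. Lipases split fats, with colipase as the cofactor of pancreatic lipase. Ptf1a is a basic helix-loop-helix factor that, with an E protein and Rbpj or its acinar relative Rbpjl, forms the PTF1 complex that activates acinar enzyme genes. Mature mTEC make transcripts of many peripheral organs, the pancreas among them, and so display their products to developing T cells. Many of these transcripts depend on the regulator Aire, and mTEC that carry Ptf1a have been described.

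The upstream sequences of 3 of the genes are shown because they hold the 2 motifs of a PTF1-type element, the kind of site by which acinar enzyme genes are known to be bound, at a short fixed distance. They are the 250 bases before the annotated start site in RefSeq (GRCm38.p6), written 5′ to 3′ on the gene's strand, and capitals mark the E-box (CANNTG) and the TC-box (TTTCCC, or GGGAAA where it lies on the other strand) of that pair only. Further CANNTG matches in the windows are left in lower case.
Ctrb1, chr8:111691011-111691260, minus strand: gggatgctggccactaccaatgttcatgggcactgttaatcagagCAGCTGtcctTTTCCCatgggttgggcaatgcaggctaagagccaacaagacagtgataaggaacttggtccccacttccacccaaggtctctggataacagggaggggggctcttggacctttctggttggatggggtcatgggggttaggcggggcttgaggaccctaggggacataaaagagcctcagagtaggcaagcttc
Cela1, chr15:100687921-100688170, minus strand: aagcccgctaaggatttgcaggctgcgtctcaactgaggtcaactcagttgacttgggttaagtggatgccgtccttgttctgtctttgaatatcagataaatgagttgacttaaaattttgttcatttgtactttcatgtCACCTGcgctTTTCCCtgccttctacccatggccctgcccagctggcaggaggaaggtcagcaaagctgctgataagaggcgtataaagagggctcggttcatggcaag
Cel, chr2:28563404-28563653, minus strand: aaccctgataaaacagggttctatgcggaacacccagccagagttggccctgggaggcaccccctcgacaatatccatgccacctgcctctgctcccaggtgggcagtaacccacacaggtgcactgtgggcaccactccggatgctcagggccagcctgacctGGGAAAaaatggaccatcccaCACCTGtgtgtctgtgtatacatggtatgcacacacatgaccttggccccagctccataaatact

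In the Ctrb1 window the element read CAGCTGtcctTTTCCC and ended 190 bases before the start site. In the Cela1 window it read CACCTGcgctTTTCCC and ended 94 bases before the start. Both have 4 bases between the motifs. In the Cel window the motifs lay on the other strand, 15 bases apart, as GGGAAAaaatggaccatcccaCACCTG. RefSeq windows were found for 9 of the 10 genes, all but Clps, and 3 of these 9 held, on either strand, an E-box followed by TTTCCC after 4 or 15 bases. Among all 32851 RefSeq windows of the same length, 67 (0.204%) held such a pair. The 2 gaps were chosen after these windows had been read. With any gap of up to 25 bases in this orientation the same 3 of 9 windows held a pair, against 805 of all windows (2.45%).

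Each motif by itself was commoner. CANNTG occurred in 7 of the 9 windows and in 66.2% of all windows, CACCTG in 5 of 9 and 17.2%, and TTTCCC in 5 of 9 and 21.9%. The windows of Cela2a and Cpa1 also held a CANNTG and a TTTCCC, but not in that order and distance. TATAAA, the core of the TATA box, occurred in the windows of Cela1 and Pnlip, 2 of 9, and in 12.4% of all windows. Both strands were searched, every CACCTG is also a CANNTG, and a match describes letters and not a bound site. Of the 26 windows of 24 other acinar genes, 1, that of the trypsinogen gene Prss1, held the pair, with a gap of 4 bases.

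**Figure D1:**
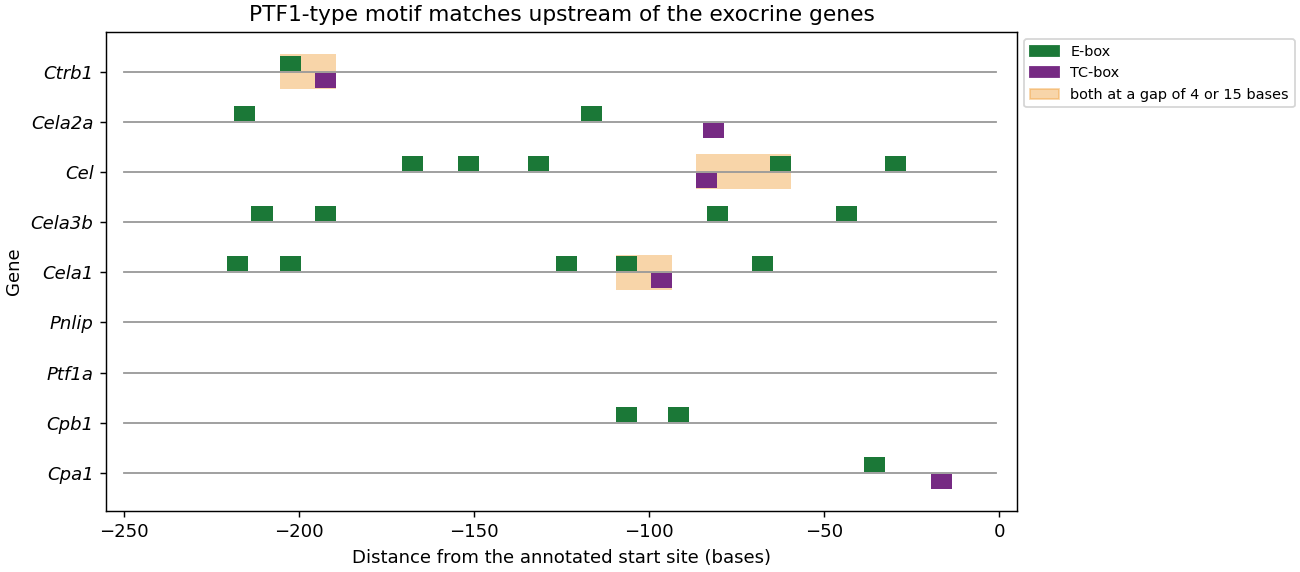
Positions of E-box (CANNTG, green) and TC-box (TTTCCC, purple) matches on either strand in the 250 bases before the annotated start site of 9 exocrine genes, with the distance from the start site in bases on the x axis and 1 gene per row. Shading marks the stretch within the windows of Ctrb1, Cel and Cela1 where an E-box is followed on its strand by a TC-box after 4 or 15 bases.

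Values are RPKM, that is reads scaled by transcript length and by library depth, so levels can be compared between genes within a library. Read numbers were recovered from the size of the steps in these values, about 114600000 reads for mTEChi and 20900000 for mTEClo, and counting intervals (95%, exact Poisson) rest on them and cover counting error only. They treat reads as independent, so the mTEChi intervals are too narrow if both reads of a pair were counted. Sums and levels per library are as deposited. For fold changes the mTEClo values were multiplied by 1.21, which sets the median ratio of well-expressed genes to 1, and log2 changes use a pseudocount of 1 RPKM, which understates changes of low genes. Epithelial genes were high in both libraries (Epcam, an epithelial surface protein, had 198 RPKM in mTEChi and 127 RPKM in mTEClo), and H2-Aa, a chain of the sorted MHC class II molecule, had 4908 RPKM in mTEChi and 1524 RPKM in mTEClo. Aire had 122 RPKM in mTEChi and 15.9 RPKM in mTEClo.

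All 10 genes were listed above 0 in mTEChi, and the listed value of each was higher there than in mTEClo. Summed over the 10 genes, the level was 93.1 RPKM in mTEChi and 4.57 RPKM in mTEClo. Ctrb1 and Clps made up 78.7% of the sum in mTEChi and 32.1% in mTEClo. In mTEClo, 6 of the 10 genes were listed at 0, as were 30.9% of all genes. Levels within mTEChi were very uneven, with Ctrb1 790-fold above Cpa1 in RPKM, although both are major products of the same acinar cell in the pancreas. In mTEChi the order was Ctrb1, Clps, Cela2a, Cel, Cela3b, Cela1, Pnlip, Ptf1a, Cpb1 and Cpa1, and of these neighbours only Cela2a and Cel had counting intervals that overlapped. In mTEClo the order of the 4 genes above 0 was Cela2a, Cela1, Clps and Ctrb1, and the intervals of each neighbouring pair overlapped.

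**Figure D2:**
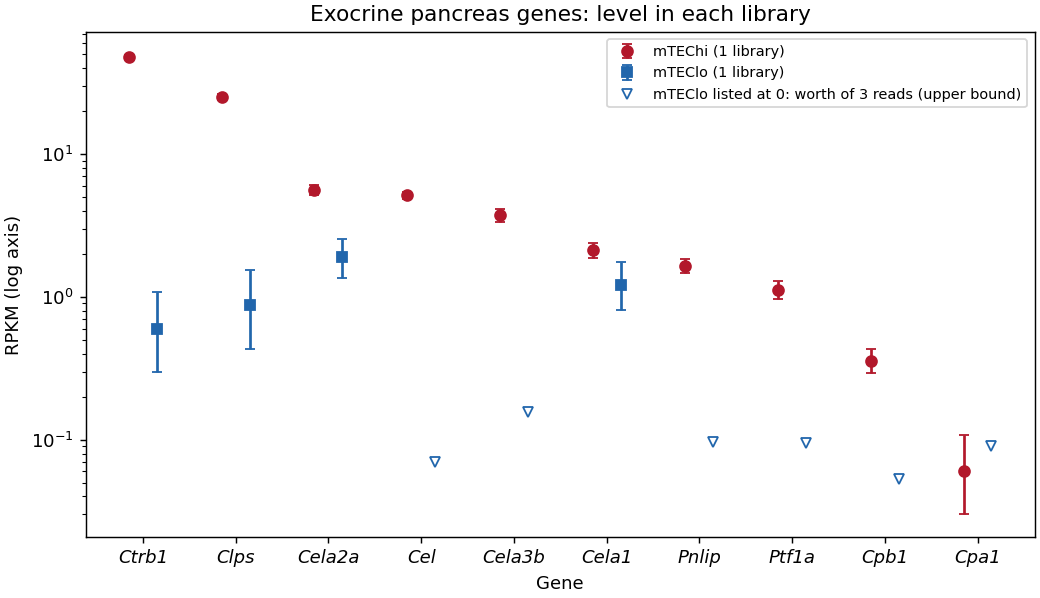
Level of each of the 10 genes in RPKM on a log axis, with mTEChi as circles and mTEClo as squares (1 library each), bars for 95% counting intervals, and open triangles for the worth of 3 reads where mTEClo is listed at 0. The genes run from 48.0 RPKM for Ctrb1 to 0.0607 RPKM for Cpa1 in mTEChi, and in mTEClo only Ctrb1, Clps, Cela2a and Cela1 are above 0.

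Among the proteases, Ctrb1, which encodes chymotrypsinogen B, had the highest level of the 10 genes. It was listed at 48.0 RPKM in mTEChi (interval 46.6 to 49.3) and at 0.594 RPKM in mTEClo (0.300 to 1.07). These values stood for about 4828 reads in mTEChi and 11 reads in mTEClo. The ratio without pseudocount was 66.9-fold, with a counting interval of 36.9 to 133, and the log2 change was 4.83. Ctrb1 lay above 94.7% of all gene symbols in mTEChi and above 40.3% in mTEClo.

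The 3 elastase genes differed from each other. Cela2a was listed at 5.61 RPKM in mTEChi (5.19 to 6.04) and 1.89 RPKM in mTEClo (1.36 to 2.54), which made it the highest of the 10 genes in mTEClo. Its ratio was 2.46-fold (interval 1.80 to 3.45) and its log2 change 1.01, close to the threshold of 2-fold. Its gene overlaps Casp9 in the RefSeq table, which had 5.82 RPKM in mTEChi and 5.41 RPKM in mTEClo, and without strand the reads of an overlap cannot be told apart.

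Cela3b was listed at 3.73 RPKM in mTEChi (3.37 to 4.12) and at 0 in mTEClo. Its listed mTEChi value was at least 19.9-fold above the worth of 3 reads, the upper limit (95%) taken for a count of 0, and folds given as "at least" are formed in this way throughout. Such folds hold only if the listed 0 is a true count of 0, and they leave out the interval of the mTEChi value. Cela3a, its neighbour and close relative, had 0.882 RPKM in mTEChi and was listed at 0 in mTEClo, and how the authors divided reads shared by both is not stated.

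Cela1 was the member with the smallest ratio among those above 0 in both libraries. It was listed at 2.13 RPKM in mTEChi (1.89 to 2.40) and 1.21 RPKM in mTEClo (0.805 to 1.75), or about 271 reads in mTEChi and 28 in mTEClo. Its ratio was 1.46-fold, with a counting interval of 0.986 to 2.24 that includes 1 at the scaling of 1.21. With no scaling, or with sums or upper quartiles set equal, the lower limit lies above 1. Whether a difference is detectable thus depends on the scaling. Of the elastases, Cela1 and Cela2a were thus listed above 0 in both libraries, and Cela3b in mTEChi alone.

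The 2 carboxypeptidase genes were the lowest of all. Cpb1, which encodes procarboxypeptidase B, was listed at 0.356 RPKM in mTEChi (0.293 to 0.429) and at 0 in mTEClo, at least 5.56-fold higher in mTEChi. Cpa1, for procarboxypeptidase A, was listed at 0.0607 RPKM in mTEChi (0.0303 to 0.108), about 11 reads, and at 0 in mTEClo. At equal levels mTEClo would have held 1.66 Cpa1 reads, so depth does not allow a statement on that gene. Both lay under the filter of a mean of 0.5 RPKM.

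Of the genes of fat digestion, Clps, which encodes colipase, had the highest level. It was listed at 25.3 RPKM in mTEChi (24.1 to 26.5) and at 0.872 RPKM in mTEClo (0.431 to 1.54), about 1772 reads in mTEChi and 11 in mTEClo. The ratio was 24.0-fold (interval 13.5 to 48.7) and the log2 change 3.68. Pnlip, the pancreatic lipase that needs colipase, was far lower than its cofactor, at 1.65 RPKM in mTEChi (1.46 to 1.85) and at 0 in mTEClo, at least 14.1-fold higher in mTEChi. Cel, the bile salt-dependent lipase, had 5.17 RPKM in mTEChi (4.88 to 5.47) and was listed at 0 in mTEClo, at least 61.3-fold higher in mTEChi. Lipase and cofactor were thus present in mTEChi at unequal levels.

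Ptf1a was listed at 1.12 RPKM in mTEChi (0.970 to 1.29), about 194 reads, and at 0 in mTEClo, at least 9.72-fold higher in mTEChi. Its gene overlaps the antisense RNA gene Ptf1aos in the RefSeq table, so part of its reads can come from that partner. Its level lay above 39.9% of all gene symbols in mTEChi.

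Reads expected in mTEClo at equal levels show how much each value of 0 could have missed. For Cel, 184 reads were expected and 0 were listed. For Cela3b 59.6, for Pnlip 42.3, for Ptf1a 29.2 and for Cpb1 16.7 reads were expected, again with 0 listed. Only Cpa1, with 1.66, had fewer than 3 expected reads. A 0 in these files can also be a failed estimate, since Rps21, a ribosomal protein gene used by every cell, was listed at 144 RPKM in mTEChi and at 0 in mTEClo. Folds given as "at least" do not hold for a 0 of that kind. Of the 6 members between 1 and 10 RPKM in mTEChi, 4 were listed at 0 in mTEClo, beside 8.8% of all 8741 genes at that level.

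**Figure D3:**
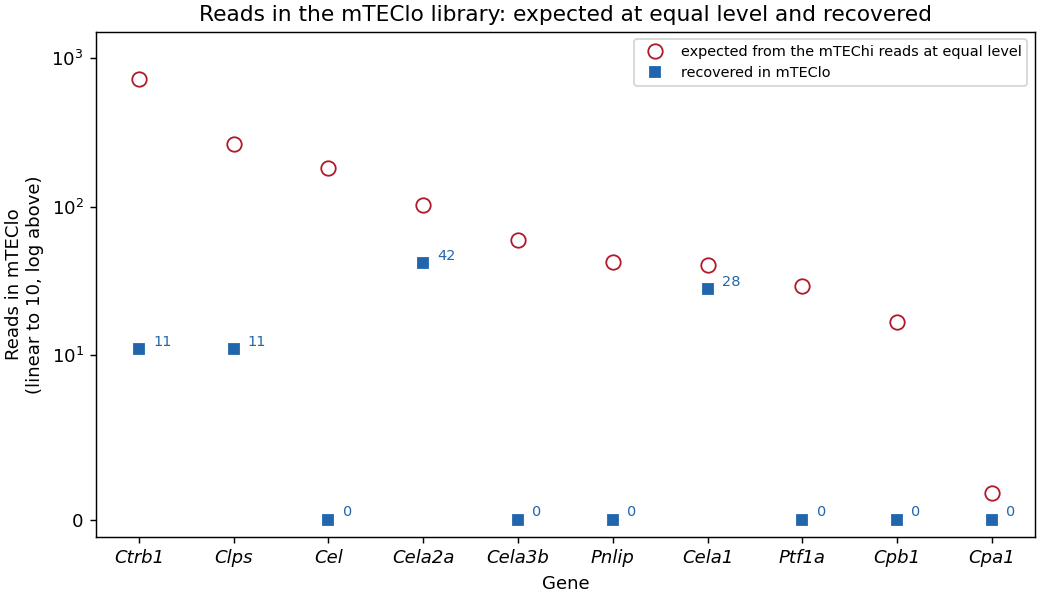
Reads in the mTEClo library for each of the 10 genes, expected from the mTEChi reads if levels were equal (open circles) and as recovered from the deposited values (squares, with their number), on an axis that is linear up to 10 reads and logarithmic above. Cela1 has 28 recovered and 40.8 expected reads, whereas Ctrb1 has 11 recovered and 727 expected reads.

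Of the 10 genes, 8 had a mean of 0.5 RPKM or more, and 7 of these 8 were at least 2-fold higher in mTEChi and 0 were 2-fold lower. Among all 15590 genes that passed the same filter, 16.1% were 2-fold higher in mTEChi and 9.35% were 2-fold lower. Without scaling these shares were 19.4% higher and 6.48% lower, and with upper quartiles set equal 22.0% higher and 5.38% lower, with 7 of 8 members 2-fold higher in each case. Both settings put the scaling below 1.21, so neither could have lowered that count. Of the 7, 4 were listed at 0 in mTEClo, as were 5.32% of the genes that passed the filter, and for these the filter and the pseudocount set the call by themselves. Among the 4 members above 0 in both libraries 3 were 2-fold higher, Ctrb1, Clps and Cela2a, beside 11.4% of all genes above 0 in mTEClo that passed the filter. With a pseudocount of 5 RPKM only Ctrb1, Clps and Cel were 2-fold higher. The median log2 change was 1.25 over all 10 genes, and 0.04 over all gene symbols. In bulk RNA, more cells that carry a transcript and more transcript per cell cannot be told apart.

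The other proteases of acinar cells and their inhibitors were mixed. Of 12 matched genes, 10 passed the filter, 5 were 2-fold higher in mTEChi and 0 were 2-fold lower. Of the 5, 2 were listed at 0 in mTEClo, where the filter sets the call, and among the 8 genes above 0 there 3 were 2-fold higher, beside the 11.4% of all such genes given above. Spink1, the secreted trypsin inhibitor, had 419 RPKM in mTEChi and 23.1 RPKM in mTEClo (log2 change 3.86), the highest mTEChi level of this list. Klk1, tissue kallikrein, had 165 RPKM in mTEChi and 79.7 RPKM in mTEClo (0.77). The trypsinogen gene Prss2 had 19.6 RPKM in mTEChi and 10.02 RPKM in mTEClo (0.65), and Prss1 had 5.58 RPKM in mTEChi and 0.949 RPKM in mTEClo (1.62). Trypsinogen genes are near copies of each other, so the split of reads between them is uncertain. With upper quartiles set equal Klk1 (1.20) and Prss2 (1.05) passed 2-fold as well. The chymotrypsin-like gene Ctrl had 0.853 RPKM in mTEChi and 0.916 RPKM in mTEClo (-0.19, and above 0 with upper quartiles set equal).

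Other lipases, amylases and nucleases of acinar cells comprised 8 genes, of which 6 passed the filter, 4 were 2-fold higher and 1 was 2-fold lower. Of the 4, 3 were listed at 0 in mTEClo, and of the 3 genes above 0 there 1 was higher and 1 lower. Over all genes that passed the filter, 16.1% were higher and 9.35% lower, and 11.4% were higher among those above 0 in mTEClo. Rnase1, a secreted ribonuclease, had 74.03 RPKM in mTEChi and 26.1 RPKM in mTEClo (1.21). Pla2g1b, the secreted pancreatic phospholipase, had 17.3 RPKM in mTEChi and was listed at 0 in mTEClo (4.20). Amy1, an amylase gene, went the other way with 0.419 RPKM in mTEChi and 1.99 RPKM in mTEClo (-1.26), and the pancreatic amylase line Amy2a5, 1 of several near copies, had 0.282 RPKM in mTEChi and 0 in mTEClo. Pnliprp1 and Pnliprp2, which lie next to Pnlip, encode lipase-related proteins. They had 1.501 and 1.93 RPKM in mTEChi, close to the level of Pnlip, and like Pnlip both were listed at 0 in mTEClo.

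The 2 protein-coding genes on each side of each member, 40 in all, varied. Of these, 28 passed the filter, 5 were 2-fold higher in mTEChi and 5 were 2-fold lower. Among all genes that passed it, 16.1% were 2-fold higher and 9.35% were 2-fold lower. The neighbours higher in mTEChi were Pnliprp1 and Pnliprp2 near Pnlip, Agmat and Fhad1 near Cela2a, and Slc4a8 near Cela1. Pnliprp1, Pnliprp2 and Agmat were listed at 0 in mTEClo, where the filter sets the call. The protein-coding genes on both sides of Ctrb1 are Zfp1 and Bcar1. Zfp1 had 2.68 RPKM in mTEChi and 6.17 RPKM in mTEClo (-1.20), and Bcar1 had 7.49 RPKM in mTEChi and 15.4 RPKM in mTEClo (-1.21). Next to Cel, Gtf3c5 had 10.7 RPKM in mTEChi and 9.63 RPKM in mTEClo (-0.11), and Ralgds had 22.95 RPKM in mTEChi and 36.1 RPKM in mTEClo (-0.90). Clpsl2, a colipase-like gene beside Clps, was listed at 0 in both libraries. Cpa3, a carboxypeptidase gene of mast cells and the neighbour of Cpb1, had 0.258 RPKM in mTEChi and 0 in mTEClo.

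Genes of the zymogen granule and of acinar secretion comprised 13 genes, of which 11 passed the filter, 9 were 2-fold higher and 0 were 2-fold lower. Of the 9, 5 were listed at 0 in mTEClo, so that their call was set by the filter. Among the 6 genes above 0 in mTEClo 4 were 2-fold higher, beside 11.4% of all such genes that passed the filter. With genes at 0 included, the shares over all genes were 16.1% higher and 9.35% lower. Vamp8, a membrane fusion protein of many cells, had 254 RPKM in mTEChi and 170 RPKM in mTEClo (0.31). Gp2, a granule membrane protein that microfold cells also carry, had 207 RPKM in mTEChi and 28.8 RPKM in mTEClo (2.54). Reg1, a secreted lectin, had 41.1 RPKM in mTEChi and 2.80 RPKM in mTEClo (3.26), and Zg16, a granule lectin also made in the gut, had 29.5 RPKM in mTEChi and 0.527 RPKM in mTEClo (4.22). Cckar, the cholecystokinin receptor through which acinar secretion is triggered, had 1.54 RPKM in mTEChi and was listed at 0 in mTEClo.

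Transcription factors of acinar cells and partners of Ptf1a showed no common direction. Of 12 genes, 8 passed the filter, 3 were 2-fold higher and 3 were 2-fold lower, beside 16.1% higher and 9.35% lower among all genes. The median over those 8 was -0.68, whereas over all 12 genes it was 0.23, with 7 of the 12 higher in mTEChi. Rbpj, a partner in the PTF1 complex, had 16.1 RPKM in mTEChi and 6.05 RPKM in mTEClo (1.04), whereas its acinar relative Rbpjl had 0.177 RPKM in mTEChi and 0 in mTEClo. Among the E protein genes, whose products pair with Ptf1a, 1 of 3 was 2-fold lower. Tcf12 had 9.74 RPKM in mTEChi and 13.6 RPKM in mTEClo (-0.70), Tcf3 had 7.93 RPKM in mTEChi and 10.9 RPKM in mTEClo (-0.66), values that were -0.30 for Tcf12 and -0.26 for Tcf3 with upper quartiles set equal. Tcf4 had 2.18 RPKM in mTEChi and 6.15 RPKM in mTEClo (-1.41). Gata4, a factor of endodermal organs, had 5.63 RPKM in mTEChi and 1.57 RPKM in mTEClo (1.20), while its relative Gata6 had 0.150 RPKM in mTEChi and 2.13 RPKM in mTEClo (-1.63). Foxa2, a factor of the endoderm, had 1.43 RPKM in mTEChi and 3.58 RPKM in mTEClo (-1.13). Bhlha15, Nr5a2 and Pdx1, which mark acinar cells or the pancreas at large, had 0.172, 0.355 and 0.555 RPKM in mTEChi and were listed at 0 in mTEClo.

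**Figure D4:**
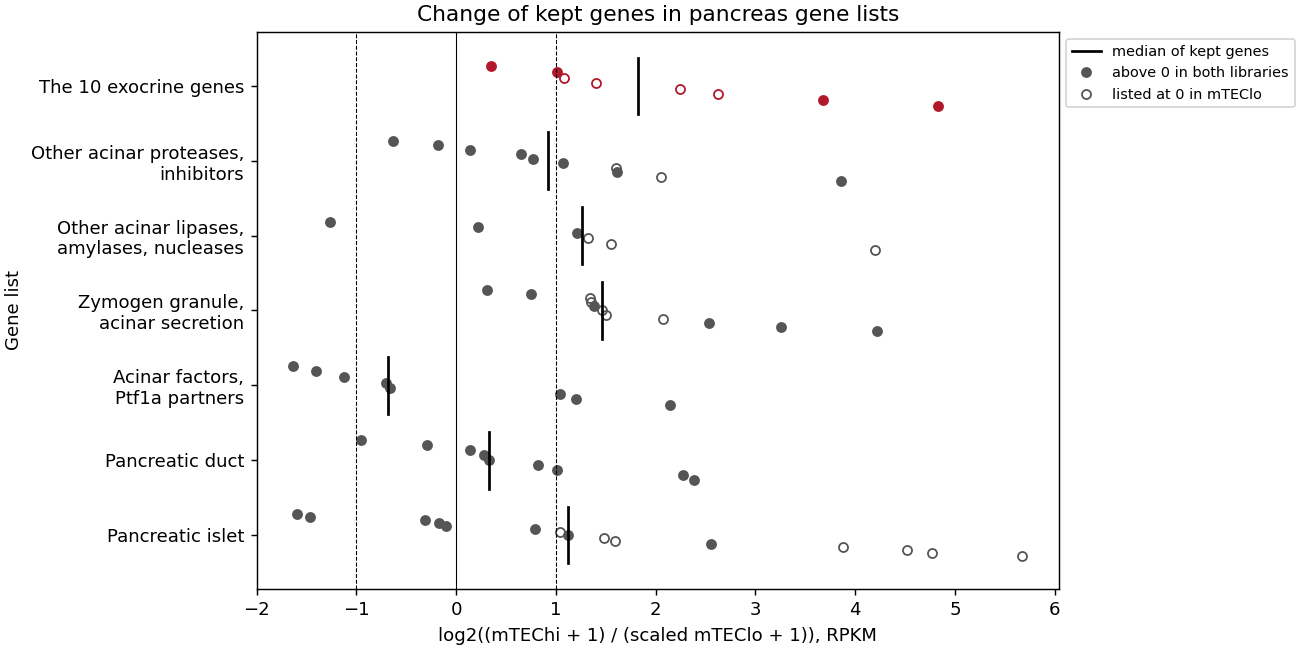
Log2 change of mTEChi over scaled mTEClo (pseudocount 1 RPKM) for each gene that passed the filter in 7 pancreas lists, 1 list per row, with open circles for genes listed at 0 in mTEClo, a bar for the list's median and dashed lines at 2-fold. The 10 exocrine genes have 7 of 8 points past 2-fold, and the factors and partners of Ptf1a have 3 past 2-fold on each side.

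Markers of other cells were counted in the same way. Of all genes that passed the filter, 16.1% were 2-fold higher in mTEChi and 9.35% were 2-fold lower. Of the 11 dendritic cell and macrophage markers that passed the filter, 8 were 2-fold higher in mTEChi and 0 were 2-fold lower. Of the 8, 1 (Flt3) was listed at 0 in mTEClo, where the filter sets the call. The whole list had a summed level of 566 RPKM in mTEChi and 151 RPKM in mTEClo, most of it Lyz2 (493 RPKM in mTEChi and 133 RPKM in mTEClo). Within 2-fold were Sirpa (7.12 RPKM in mTEChi and 6.55 RPKM in mTEClo, log2 change -0.13) and Itgax (0.690 and 0.583 RPKM, -0.01). So was Zbtb46, with 5.74 RPKM in mTEChi and 2.19 RPKM in mTEClo (0.88). Flt3 (1.27 RPKM in mTEChi), Xcr1 (0.598 RPKM) and Clec9a (0.0976 RPKM) were at 0 in mTEClo. So were 30.9% of all genes, and a 0 there does not show that a transcript was absent. Of 4 B cell markers past the filter 2 were 2-fold higher, and 1 of the 2, Cd79a, was listed at 0 in mTEClo. The list summed to 29.0 RPKM in mTEChi and 12.3 RPKM in mTEClo. Cd79a (1.98 RPKM in mTEChi), Ms4a1 (0.957 RPKM), Pax5 (0.339 RPKM) and Cd22 (0.520 RPKM) were at 0 in mTEClo. Of 9 thymocyte markers past the filter 2 were 2-fold higher, with a median log2 change of 0.10. That list summed to 20.96 RPKM in mTEChi and 14.9 RPKM in mTEClo. In the other direction, 7 of 9 fibroblast and pericyte, 7 of 7 endothelial and 5 of 6 erythroid markers past the filter were 2-fold lower in mTEChi. The pericyte marker Rgs5 was higher, with 126 RPKM in mTEChi and 49.1 RPKM in mTEClo (1.07). Fibroblast and pericyte markers summed to 164 RPKM in mTEChi and 747 RPKM in mTEClo, endothelial markers to 18.0 RPKM in mTEChi and 144 RPKM in mTEClo, and erythroid markers to 566 RPKM in mTEChi and 10667 RPKM in mTEClo. The part of these cells in the levels of the exocrine genes was not tested.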

How the data were processed

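RNA of sorted mTEChi and mTEClo cells was sequenced in 1 library per group. RNA was extracted with Trizol, poly(A)-selected and made into libraries without strand, per the labels. The authors deposited RPKM per RefSeq transcript line. The submitters' processing notes list bedtools, Bowtie 1.0.0 and CASAVA beside mouse build mm9, with no roles.

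Of 30794 lines, 30216 were named through the RefSeq gene table (GRCm38.p6) and 180 through GENCODE, and 398 stayed unnamed. Where a gene had several lines, the one with the highest mean was used. The scaling of 1.21 brings to 0 the median log2 ratio over the 5167 genes whose mean reached 10 RPKM. A gene passed the filter if its mean reached 0.5 RPKM, and a log2 change of 1 (2-fold) served as threshold. Reads were recovered from the steps of RPKM times GENCODE transcript length: among lines with 1 to 10 reads, 78.0% in mTEChi and 67.7% in mTEClo lay within 0.1 of a whole read. Ratio intervals are exact binomial (Clopper-Pearson), and a value of 0 was bounded by 3 reads. The lists and members were chosen with earlier results of these data known. All 10 members were described, and of other pancreas lists at least the 3 genes with the highest mTEChi level and each gene 2-fold lower, except single genes that are not reported here. The symbols Spink3, Cd68, Ighm and Hbb-b1 were not matched, so no value was taken under these names. The calls were also run on simulated counts that hold only counting error and planted changes. The simulation has no difference in read type and no spread between libraries, so it does not test the differences described. Alternatives were other pseudocounts, scalings, filters and summed isoforms. Software was Python 3.11.15 with pandas 2.3.3, numpy 2.4.6, matplotlib 3.10.9 and scipy 1.17.1.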

Additional observations from a re-analysis of the deposited data

How the results depend on the processing

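The 4 genes above 0 in both libraries kept their direction under each of the 6 alternative pseudocounts, scalings and isoform choices, but none of these could have reversed it. A pseudocount does not change the sign, each of the genes has 1 line, and every other scaling was below 1.21. The 6 genes at 0 in mTEClo could not change sign either. The count of 7 of 8 genes past 2-fold was 3 of 8 with a pseudocount of 5 RPKM, 2 of 2 when the filter was a mean of 5 RPKM, and 3 of 4 with genes at 0 in mTEClo left out, an alternative chosen after seeing the data. The median log2 change of 1.82 among the 8 genes that passed the filter was 4.30 with a pseudocount of 0.1 RPKM, 0.67 with 5 RPKM, 1.25 without the filter, 2.43 and 4.26 with filters of 1 and 5 RPKM, 2.34 with genes at 0 left out and 4.07 with them at the bound of 3 reads and no pseudocount, the last also chosen after seeing the data. Among all genes, 2508 higher and 1457 lower became 877 and 648 with a pseudocount of 5 RPKM, 1010 and 822 with a filter of 5 RPKM, and the lower ones 838 with upper quartiles set equal. Cela2a, Cela3b, Pnlip and Ptf1a were past 2-fold in 5 of 6 alternatives, all but the pseudocount of 5 RPKM. Only that pseudocount could have taken the call away, since the other alternatives left these changes as they were or raised them. Cpb1 was past 2-fold only with a pseudocount of 0.1 RPKM (2.19). No paired analysis was possible because each group has 1 library. Depth limits the statement on Cpa1, and for Cela1 the scaling decides whether the counting interval includes 1.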

Other observations

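Pancreatic islet genes, set beside the exocrine genes as the other compartment of the organ, spanned a wider range. Of 23 genes 15 passed the filter, 9 were 2-fold higher in mTEChi and 2 were 2-fold lower. Of the 9, 7 were listed at 0 in mTEClo, where the filter sets the call, and of the 8 genes above 0 there 2 were higher and 2 lower. Shares over all genes that passed the filter were 16.1% higher and 9.35% lower, and 11.4% higher among those above 0 in mTEClo. The hormone gene Ppy, for pancreatic polypeptide, had 26.3 RPKM in mTEChi and was listed at 0 in mTEClo, close in mTEChi to the level of Clps. Gcg, the glucagon gene, had 13.7 RPKM in mTEChi and was listed at 0 in mTEClo. Iapp, for the beta-cell peptide amylin, had 101 RPKM in mTEChi and 13.6 RPKM in mTEClo (log2 change 2.56), and Pyy, a peptide of islet and gut endocrine cells, had 50.1 RPKM in mTEChi and 0 in mTEClo. The hormone gene Sst (28.1 RPKM in mTEChi and 71.8 RPKM in mTEClo, -1.59) and the islet factor Isl1 (4.35 RPKM in mTEChi and 11.4 RPKM in mTEClo, -1.47) were lower.

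Pancreatic duct genes had 9 of 9 past the filter, 3 of them 2-fold higher and 0 lower. Among all genes past it, 16.1% were higher and 9.35% lower. All 9 were above 0 in mTEClo, and 11.4% of all such genes past the filter were 2-fold higher. Cftr, the chloride channel of duct cells, had 4.81 RPKM in mTEChi and 0.0911 RPKM in mTEClo (2.39), and the mucin gene Muc1 had 58.5 RPKM in mTEChi and 9.36 RPKM in mTEClo (2.27). The keratin genes Krt7 (150 RPKM in mTEChi and 242 RPKM in mTEClo, -0.95) and Krt19 (113 RPKM in mTEChi and 84.9 RPKM in mTEClo, 0.14), which thymic epithelium also makes, were within 2-fold, and Car2 (13.02 RPKM in mTEChi and 4.95 RPKM in mTEClo, 1.01) lay at the threshold.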
